A study of Homo sapiens with 12 samples.

Results

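The genes described here are 9 members of the machinery that loads peptides onto MHC class I molecules: HLA-B, HLA-C, HLA-E, B2M, TAP1, TAP2, TAPBP, NLRC5 and ERAP1. They were chosen by name and matched by their primary-assembly Ensembl identifier, and they make up 9 of the 57820 genes with a row in the deposited tables. They were measured by RNA sequencing in G401, an established human malignant rhabdoid tumour line of the genotype SMARCB1(-/-), so every group lacks its own SMARCB1, which belongs to the core of the SWI/SNF chromatin remodelling complexes. Doxycycline induced either GFP, the control protein, or SMARCB1, and the cells of each kind then received DMSO, the solvent, or dBRD9-A, a small molecule that directs the BRD9 protein to degradation, for 24 h. BRD9 is a subunit of the non-canonical form of these complexes. The 4 groups, called GFP DMSO, GFP dBRD9-A, SMARCB1 DMSO and SMARCB1 dBRD9-A below, had 3 replicates each, 12 libraries in all. One cell line was used, and the labels name neither separate cultures for the replicates, nor the dose of dBRD9-A, nor the length of induction. The p-values therefore measure only the spread between these libraries, which may be technical.

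MHC class I molecules are pairs of a heavy chain, encoded by genes such as HLA-B, HLA-C and HLA-E, and a small invariant chain, B2M, which hold a peptide at the cell surface for inspection by CD8 T cells and natural killer cells. The peptides come largely from the proteasome. TAP1 and TAP2 form the transporter that carries them into the endoplasmic reticulum, TAPBP (tapasin) bridges the transporter to an empty heavy chain, and the aminopeptidase ERAP1 trims the peptides to the length that fits. NLRC5 is the transactivator of class I genes and is itself induced by interferon.

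The libraries held 34.97 to 58.54 megacounts assigned to genes, and replicates differed by more than sampling noise, so each was kept as a sample. SMARCB1 had 0 to 2 counts in each GFP library and 53033 to 110893 counts in each SMARCB1 library. It stood at 1806 to 1911 CPM in SMARCB1 DMSO libraries and 1276 to 1327 CPM with dBRD9-A, a difference of -0.52 in log2 units (SE 0.03, edgeR adjusted p 4.95e-08). The part of this lower SMARCB1 level in the comparisons with dBRD9-A was not tested. Its count does not tell the induced construct from the chromosomal gene. Of 8 leukocyte markers, PTPRC, CD3E and NKG7 were at 0 in all 12 libraries, 7 of 8 were at or under the floor of 3 counts, and the 8 together had 3 to 12 counts a library. Of 3 endothelial markers, VWF had 0 to 5 counts in GFP libraries and 22 to 50 in SMARCB1 libraries, and the summed level was 0 to 0.121 counts per megacount of the TMM-scaled library (CPM) in GFP libraries and 0.608 to 1.15 CPM in SMARCB1 libraries. Its part in the differences below was not tested. VIM, KRT8 and KRT18, which rhabdoid cells express together, were abundant in every group but differed in direction with SMARCB1 in DMSO: VIM was higher by 0.81 on the log2 scale, and KRT8 and KRT18 had -0.28 and -0.58, all past the edgeR test described below. Their part in the differences was not tested. In bulk RNA, fewer cells of a type and less RNA per cell cannot be told apart.

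SMARCB1 moved the class I genes in opposite directions. In DMSO, the heavy chains HLA-B, HLA-C and HLA-E, the light chain B2M, the peptidase ERAP1 and the transactivator NLRC5 were higher in SMARCB1 than in GFP cells, while the transporter subunits TAP1 and TAP2 were lower. In edgeR's quasi-likelihood test with Benjamini-Hochberg adjustment over 15750 genes, 8 of the 9 members had an adjusted p under 0.05, 6 higher and 2 lower. Most genes responded to SMARCB1: 65% of all genes tested passed the same test, 33.5% higher and 31.6% lower, and the members' 8 of 9 has to be read against that background. The members' median on the log2 scale was 0.46, beside -0.0047 for all genes. A change past the test and of 1 or more on the log2 scale, in either direction, was found in HLA-B, HLA-C and NLRC5, 3 members, and in 14.6% of all genes. In 7 members the SMARCB1 and GFP libraries did not overlap, as in 68.7% of all genes. HLA-B and HLA-C passed the filter on low counts only through SMARCB1 libraries, where they are high, so they had to differ and support no count. Of the other 7 members 6 passed the test, 4 higher and 2 lower, with a median of 0.24, and 1 of the 7, NLRC5, changed by 1 or more.

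Both comparisons of SMARCB1 with GFP cells come from 1 fit to all 12 libraries, with a shared filter, scaling and estimate of the spread. Different libraries are contrasted in the comparison under dBRD9-A. There each of the 9 members passed the test, the same 6 higher and TAP1, TAP2 and TAPBP lower, where 63.3% of all genes passed, 33% higher and 30.4% lower. A change of 1 or more on the log2 scale was found in 3 of them and in 14.6% of all genes, and replicates did not overlap for 66.2% of all genes. Without HLA-B and HLA-C, 7 of 7 passed, 4 higher and 3 lower, with a median of 0.20, and NLRC5 was the 1 with a change of that size. With libraries scaled to the spike-in RNAs in place of TMM, the median over all genes tested moved to 0.17 on the log2 scale in DMSO and to -0.32 with dBRD9-A. Under that scaling the members' calls were 6 higher and 1 lower in DMSO, and 3 higher and 3 lower with dBRD9-A. Of all genes, 43.4% were then higher and 16.4% lower in DMSO, and 13.5% higher and 57.4% lower with dBRD9-A. The B2M value with dBRD9-A changed sign under that scaling. Fold changes below are thus relative to the bulk of genes. The spike-in value is given for a part of the calls and signs that depend on it.

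**Figure D1:**
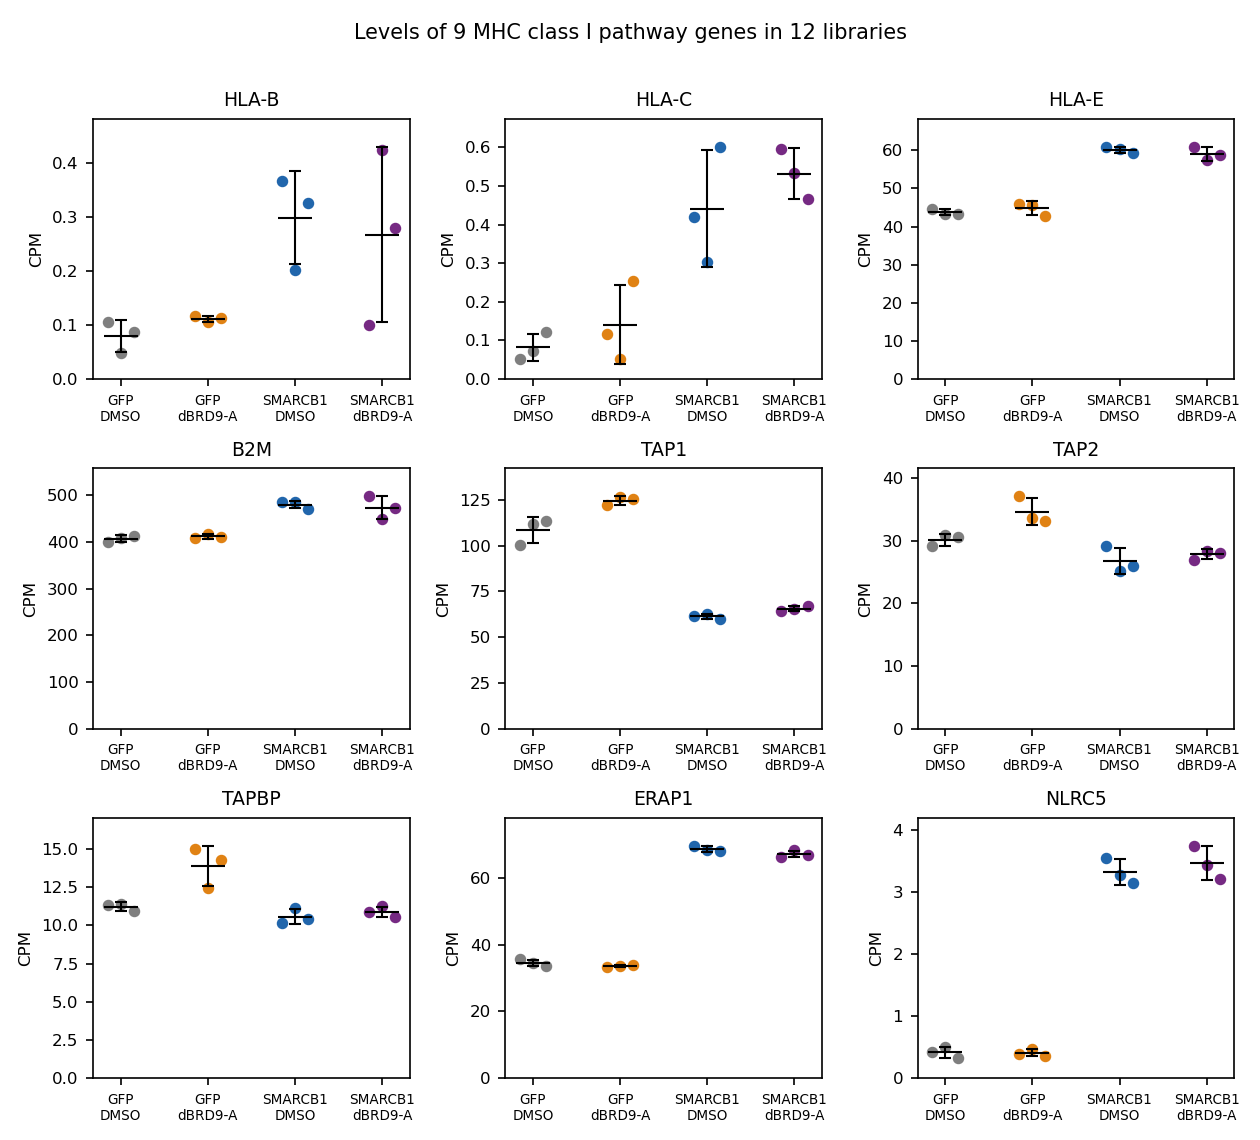
Level of each of the 9 genes in CPM on TMM-scaled library sizes, on axes that start at 0, for the 4 groups. Points are single libraries, and the horizontal line and bars give the mean and the SD of 3 replicates. HLA-E, B2M, ERAP1 and NLRC5 sit higher in every SMARCB1 library than in any GFP library, and TAP1 sits lower in every SMARCB1 library.

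The level of the genes per length differed widely. In GFP DMSO cells, per kilobase of exon (GENCODE 29), B2M stood at 171 CPM and above 98.0% of all genes tested, TAP1 at 36.7 CPM and above 88.1%, and HLA-E at 16.8 CPM and above 76.0%. TAP2, ERAP1 and TAPBP were in the middle of the range, at 4.89, 4.67 and 2.68 CPM per kilobase. NLRC5, HLA-C and HLA-B were near the bottom, at 0.0617, 0.0530 and 0.0507 CPM per kilobase, above 4.63%, 4.21% and 4.02% of tested genes. In this line the classical heavy chains HLA-B and HLA-C were thus listed at a handful of reads, while their light chain was among the most abundant transcripts. In SMARCB1 DMSO cells HLA-E, at 23.1 CPM per kilobase, stood above TAP1 at 20.7, the reverse of their order in GFP cells, and ERAP1, at 9.25, stood above TAP2 at 4.34. These orders depend on the exon lengths used, and the annotation behind the counts is not given. Not divided by length, TAP1 was at 61.3 CPM and HLA-E at 60.1 CPM in SMARCB1 DMSO cells. In GFP DMSO cells ERAP1, at 34.6 CPM, was already above TAP2, at 30.2 CPM.

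The promoters of HLA-B, HLA-C and B2M are shown as examples from the members that were higher with SMARCB1. The 250 bases before each start, in the direction of transcription, are RefSeq sequence of build GRCh38.p14, not the alleles of G401. The windows lie on the minus strand at chr6:31357180-31357429 (HLA-B) and chr6:31272093-31272342 (HLA-C) and on the plus strand at chr15:44711267-44711516 (B2M). Capitals mark, on either strand, the core of an interferon regulatory factor site (AANNGAAA), an NF-kB type site (GGGNNTTNC), the core of a cyclic AMP response element (TGACG) and the CCAAT box (CCAAT), motifs chosen after the sequences had been seen.
HLA-B: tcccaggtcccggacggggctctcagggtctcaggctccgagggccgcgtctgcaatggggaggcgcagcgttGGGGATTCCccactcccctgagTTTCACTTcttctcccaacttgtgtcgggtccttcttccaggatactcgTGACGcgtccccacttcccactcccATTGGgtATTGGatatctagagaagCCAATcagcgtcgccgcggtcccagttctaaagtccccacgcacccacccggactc
HLA-C: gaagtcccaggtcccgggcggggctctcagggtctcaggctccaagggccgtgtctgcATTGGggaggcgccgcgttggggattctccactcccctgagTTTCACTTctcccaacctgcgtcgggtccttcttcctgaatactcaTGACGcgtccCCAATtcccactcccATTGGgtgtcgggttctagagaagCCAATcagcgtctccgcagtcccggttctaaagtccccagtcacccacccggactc
B2M: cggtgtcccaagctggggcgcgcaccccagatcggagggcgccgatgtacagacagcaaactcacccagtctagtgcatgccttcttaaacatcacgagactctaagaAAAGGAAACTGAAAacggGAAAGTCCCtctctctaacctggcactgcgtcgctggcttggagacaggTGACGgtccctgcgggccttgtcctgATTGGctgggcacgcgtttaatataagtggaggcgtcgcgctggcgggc

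The HLA-B and HLA-C windows aligned with 226 identical bases, 20 mismatches and 8 gap positions. HLA-B and B2M hold all 4 motifs, and HLA-C holds each except the NF-kB type site. In B2M the capitals of the interferon factor core cover 2 overlapping matches. Of all 35116 RefSeq windows of this length, 20.3% hold the interferon factor core, 14.2% the NF-kB type site, 21.2% the cyclic AMP core and 32.0% the CCAAT box. Windows were at hand for 7 members, that is without HLA-E and NLRC5, of which 6, 5, 4 and 5 hold these motifs in their first window. The shares over all windows count further starts of a gene too. ERAP1, also higher with SMARCB1, is not shown. Its first window holds the NF-kB type site and a CCAAT box, but neither the interferon factor core nor the cyclic AMP core. The second window of ERAP1, before another annotated start, holds 2 matches of the interferon factor core and none of the other motifs. A match is a match of letters and says nothing of binding in these cells.

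HLA-B (ENSG00000234745.5) and HLA-C (ENSG00000204525.10), the classical heavy chains, had few reads. HLA-B had 6, 2 and 5 counts in the GFP DMSO libraries, 5, 4 and 4 with dBRD9-A, 14, 8 and 19 in the SMARCB1 DMSO libraries and 4, 23 and 12 with dBRD9-A. In DMSO every SMARCB1 library was above every GFP library. With dBRD9-A they overlapped: the first SMARCB1 replicate, with 4 counts, was as low as the GFP libraries. The gene entered the test only through its SMARCB1 libraries, so its p supports nothing by itself, and a fit to the groups of 1 comparison alone dropped it. HLA-B was higher with SMARCB1 by 1.82 on the log2 scale in DMSO (SE 0.53, adjusted p 0.0037) and by 1.3 with dBRD9-A (SE 0.54, adjusted p 0.0332). With no filter on low counts the values were 1.81 (adjusted p 0.00157) and 1.29 (adjusted p 0.0399). The call with dBRD9-A was lost under spike-in scaling (0.97, adjusted p 0.0931), and without the second SMARCB1 dBRD9-A replicate the value was 0.76 (adjusted p 0.262).

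HLA-C had 3, 3 and 7 counts in GFP DMSO libraries, 5, 2 and 9 in GFP dBRD9-A, 16, 12 and 35 in SMARCB1 DMSO and 24, 29 and 20 in SMARCB1 dBRD9-A. No SMARCB1 library was as low as a GFP library. The rise was 2.41 on the log2 scale in DMSO (SE 0.51, adjusted p 0.000145) and 1.92 with dBRD9-A (SE 0.47, adjusted p 0.00077). HLA-C too entered the test only through its SMARCB1 libraries. With no filter on low counts the values were 2.39 (adjusted p 3.56e-07) and 1.92 (adjusted p 2.44e-05). Even so, the mean in SMARCB1 DMSO cells was only 0.441 ± 0.151 CPM (SD, n = 3), against 0.0823 ± 0.0349 in GFP DMSO cells. A count of 3 corresponds to 0.0516 to 0.0847 CPM, so both classical genes lay near the detection floor in GFP cells. HLA-F and HLA-G, other class I heavy chains, had 0 counts in all 12 libraries, which allows up to that floor and covers counting error only.

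HLA-E (ENSG00000204592.5) is the non-classical heavy chain that presents signal peptides to NKG2 receptors of natural killer cells, and here it carried nearly all heavy-chain reads of the 3 genes. Its level was 44.7, 43.3 and 43.2 CPM in GFP DMSO, 46.0, 45.7 and 42.6 in GFP dBRD9-A, 60.8, 60.3 and 59.3 in SMARCB1 DMSO and 60.9, 57.5 and 58.6 in SMARCB1 dBRD9-A. The groups with and without SMARCB1 did not overlap. The difference was 0.46 in DMSO (SE 0.04, adjusted p 2.94e-09) and 0.40 with dBRD9-A (SE 0.04, adjusted p 2.89e-08), and the latter was 0.07 under spike-in scaling (adjusted p 0.342).

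Class I heavy chains are near-identical over long stretches, HLA-B overlaps HLA-C in GENCODE 29, and expected counts depend on how reads that map to several genes were divided. The counts of HLA-B, HLA-C and HLA-E were therefore also summed, and HLA-E made up 98.4% to 99.7% of that sum. The sum rose from 43.9 ± 0.796 to 60.9 ± 0.692 CPM in DMSO (SD, n = 3), or by 0.47 on the log2 scale (SE 0.03, adjusted p 1.44e-09), and the value with dBRD9-A was 0.41 (adjusted p 1.39e-08). Under spike-in scaling the latter was 0.08 (adjusted p 0.271). Reads divided with class I genes outside the sum are not covered by it.

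B2M (ENSG00000166710.13), the light chain shared by all class I molecules, showed a small and even rise. The levels were 401, 409 and 414 CPM in GFP DMSO, 408, 417 and 411 in GFP dBRD9-A, 485, 485 and 471 in SMARCB1 DMSO and 498, 449 and 473 in SMARCB1 dBRD9-A. All 6 SMARCB1 libraries were above all 6 GFP libraries. The log2 fold change was 0.24 in DMSO (SE 0.03, adjusted p 4.9e-06) and 0.20 with dBRD9-A (SE 0.03, adjusted p 3.45e-05). Under spike-in scaling the value with dBRD9-A reversed to -0.12 (adjusted p 0.0955), while that in DMSO was 0.40 (adjusted p 2.1e-06).

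A ratio of counts within a library does not depend on the scaling. There were 10.7 ± 0.367 HLA-E counts per 100 B2M counts in GFP DMSO and 12.5 ± 0.0845 in SMARCB1 DMSO (SD, n = 3). With dBRD9-A the ratio was 10.9 ± 0.465 in GFP and 12.5 ± 0.302 in SMARCB1 cells (SD, n = 3). The groups with and without SMARCB1 did not overlap, and the exact two-sided permutation test gave 0.1, the smallest p that 3 against 3 libraries allow.

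**Figure D2:**
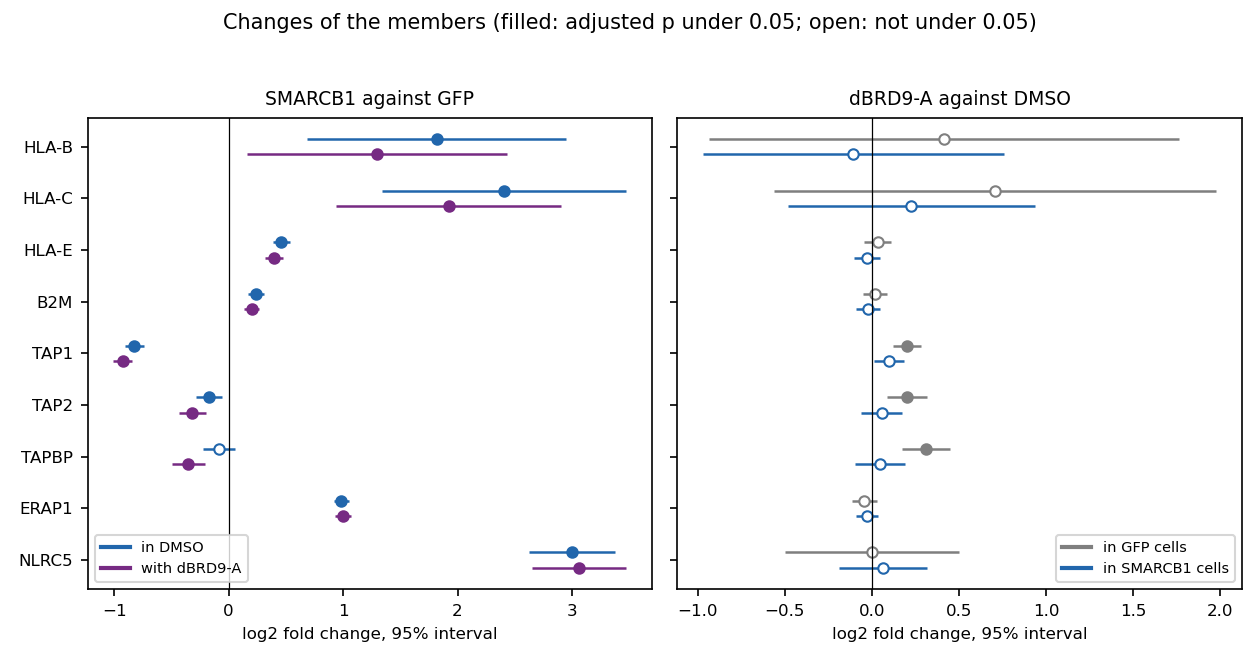
Log2 fold changes of the 9 genes with 95% intervals, for SMARCB1 against GFP on the left and dBRD9-A against DMSO on the right, each in both settings. Filled points passed the test and open points did not. On the left the heavy chains, B2M, ERAP1 and NLRC5 lie right of 0 and TAP1 and TAP2 left of it, and on the right the filled points are TAP1, TAP2 and TAPBP in GFP cells.

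The transporter subunits TAP1 and TAP2 went the other way with SMARCB1. Tapasin was lower in SMARCB1 than in GFP cells under dBRD9-A, and its difference in DMSO did not pass the test. Their RefSeq windows are shown as the second set, to be read against the first: all lie on the minus strand, at chr6:32853705-32853954 (TAP1, the first of its annotated starts), chr6:32838740-32838989 (TAP2) and chr6:33314079-33314328 (TAPBP). Capitals mark the same 4 motifs.
TAP1: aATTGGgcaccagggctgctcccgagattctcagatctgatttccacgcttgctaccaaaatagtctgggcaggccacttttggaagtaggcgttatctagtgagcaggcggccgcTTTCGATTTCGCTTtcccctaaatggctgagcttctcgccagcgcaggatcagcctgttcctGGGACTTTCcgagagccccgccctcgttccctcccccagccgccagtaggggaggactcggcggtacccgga
TAP2: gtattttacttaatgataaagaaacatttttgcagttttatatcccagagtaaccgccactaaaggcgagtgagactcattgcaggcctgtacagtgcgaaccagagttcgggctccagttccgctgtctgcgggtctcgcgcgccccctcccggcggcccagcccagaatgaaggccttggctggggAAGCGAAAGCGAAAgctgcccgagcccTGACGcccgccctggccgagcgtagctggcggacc
TAPBP: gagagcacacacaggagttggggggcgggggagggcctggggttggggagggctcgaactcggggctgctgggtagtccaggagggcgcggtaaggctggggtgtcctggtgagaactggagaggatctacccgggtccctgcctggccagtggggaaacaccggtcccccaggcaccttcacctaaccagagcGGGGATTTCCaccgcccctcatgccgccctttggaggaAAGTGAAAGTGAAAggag

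In each of these windows the capitals of the interferon factor core cover 2 overlapping matches. TAP1 and TAPBP also hold the NF-kB type site, TAPBP in 2 overlapping matches, TAP1 a CCAAT box and TAP2 the cyclic AMP core. The interferon factor core was thus found in members that were higher and in members that were lower with SMARCB1. The TAP1 start lies 487 bases from that of PSMB9, an immunoproteasome subunit read in the other direction.

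TAP1 (ENSG00000168394.9), the first subunit of the peptide transporter, fell most. Its level was 100.4, 112 and 113 CPM in GFP DMSO, 122, 127 and 125 in GFP dBRD9-A, 61.4, 62.4 and 60.0 in SMARCB1 DMSO and 64.4, 65.5 and 66.8 in SMARCB1 dBRD9-A. Every SMARCB1 library was far under every GFP library. The level with SMARCB1 was 0.565 of that with GFP in DMSO, or -0.82 on the log2 scale (SE 0.04, adjusted p 3.84e-12), and -0.93 with dBRD9-A (SE 0.04, adjusted p 7.77e-13). Among all genes tested, 8.25% had a lower value in DMSO.

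TAP2 (ENSG00000204267.9), the partner subunit, moved less. It was at 29.1, 30.8 and 30.6 CPM in GFP DMSO, 37.1, 33.7 and 33.1 in GFP dBRD9-A, 29.2, 25.2 and 26.0 in SMARCB1 DMSO and 26.9, 28.4 and 28.1 in SMARCB1 dBRD9-A. In DMSO the first SMARCB1 replicate, at 29.2, fell among the GFP libraries, whereas with dBRD9-A the groups were apart. The log2 fold change was -0.17 in DMSO (SE 0.05, adjusted p 0.0103) and -0.32 with dBRD9-A (SE 0.05, adjusted p 7.01e-05). In DMSO the spike-in value was -0.0014 (adjusted p 0.990), and the call was lost without the second (-0.13, adjusted p 0.0615) or the third (-0.15, adjusted p 0.0504) SMARCB1 DMSO replicate. Adding the reads of AL669918.1, a gene on the same strand that overlaps TAP2, changed no call.

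The transporter subunits thus shifted relative to each other. TAP1 had 359 ± 12.8 counts per 100 TAP2 counts in GFP DMSO and 361 ± 27.9 in GFP dBRD9-A (SD, n = 3), against 229 ± 18.3 in SMARCB1 DMSO and 236 ± 4.74 in SMARCB1 dBRD9-A (SD, n = 3). The GFP and SMARCB1 libraries did not overlap (exact two-sided permutation p = 0.1, the smallest possible). Per 100 B2M counts, TAP1 fell from 26.6 ± 1.33 to 12.8 ± 0.0982 in DMSO and stood at 30.2 ± 0.279 in GFP and 13.9 ± 0.862 in SMARCB1 cells with dBRD9-A (SD, n = 3), again with no overlap (exact permutation p = 0.1). Per 100 HLA-E counts TAP1 stood at 248 ± 20.5 in GFP DMSO and 102 ± 1.37 in SMARCB1 DMSO (SD, n = 3).

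TAPBP (ENSG00000231925.7), tapasin, had 11.3, 11.4 and 10.9 CPM in GFP DMSO, 15, 12.5 and 14.3 in GFP dBRD9-A, 10.2, 11.1 and 10.4 in SMARCB1 DMSO and 10.9, 11.2 and 10.6 in SMARCB1 dBRD9-A. GFP dBRD9-A was the group that stood apart. In DMSO the difference with SMARCB1 was -0.09 (SE 0.07, 95% interval -0.23 to 0.05, adjusted p 0.273) and did not pass. With dBRD9-A it was -0.35 (SE 0.07, adjusted p 0.000179). Under spike-in scaling the value in DMSO was 0.08 (adjusted p 0.454).

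ERAP1 (ENSG00000164307.8), the trimming aminopeptidase, was at a close to even level within each group. It stood at 35.6, 34.6 and 33.7 CPM in GFP DMSO, 33.2, 33.6 and 34.0 in GFP dBRD9-A, 69.6, 68.2 and 68.0 in SMARCB1 DMSO and 66.3, 68.2 and 66.9 in SMARCB1 dBRD9-A. SMARCB1 cells were 1.98-fold higher in DMSO, 0.99 on the log2 scale (SE 0.03, adjusted p 1.04e-14), and 1.0 with dBRD9-A (SE 0.03, adjusted p 1.44e-14). ERAP1 shares bases with CAST on the opposite strand in GENCODE 29. The library kit keeps strand, but whether the counting used it is not given in the sources used here.

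NLRC5 (ENSG00000140853.11), the class I transactivator, had the largest fold change of the 9 in both comparisons, from a low level. It had 24, 21 and 19 counts in GFP DMSO, 17, 18 and 13 in GFP dBRD9-A, 136, 130 and 183 in SMARCB1 DMSO and 151, 187 and 138 in SMARCB1 dBRD9-A. The lowest SMARCB1 library was well above the highest GFP library. The fitted rise was 7.98-fold in DMSO, with the mean going from 0.421 ± 0.0904 to 3.33 ± 0.211 CPM (SD, n = 3), which is 3.0 on the log2 scale (SE 0.18, adjusted p 1.82e-11). With dBRD9-A the value was 3.06 (SE 0.20, adjusted p 3.38e-11). NLRC5 also shares bases with antisense genes in GENCODE 29.

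The effect of dBRD9-A was then read within each cell state. In GFP cells 3 of the 9 members passed the test, TAP1, TAP2 and TAPBP, and all 3 were higher, where 15.9% of all genes passed, 7.43% higher and 8.47% lower. None reached 1 on the log2 scale, as 0.908% of all genes did. TAP1 rose from 109 ± 7.05 to 125 ± 2.36 CPM (SD, n = 3), by 0.20 on the log2 scale (SE 0.04, adjusted p 0.00138). TAP2 rose from 30.2 ± 0.960 to 34.6 ± 2.17 CPM (SD, n = 3), by 0.20 (SE 0.05, adjusted p 0.0168). TAPBP rose from 11.2 ± 0.275 to 13.9 ± 1.31 CPM (SD, n = 3), by 0.31 (SE 0.07, adjusted p 0.00334). For each of the 3 genes every dBRD9-A library was above every DMSO library, as was so, in either direction, for 34% of all genes. The TAP2 call was lost without the first GFP DMSO replicate (0.17, adjusted p 0.0851) or the first GFP dBRD9-A replicate (0.15, adjusted p 0.116).

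The other 6 members did not pass in GFP cells. HLA-E had 0.03 (95% interval -0.04 to 0.11, adjusted p 0.595), B2M 0.02 (-0.05 to 0.08, adjusted p 0.813) and ERAP1 -0.04 (-0.11 to 0.03, adjusted p 0.437). These intervals are narrow, since these genes had many reads. For NLRC5 the interval ran from -0.50 to 0.50, and for HLA-B and HLA-C it was wider still, so that a change of that size was not detectable at this depth. Under spike-in scaling the median of all genes in this comparison was 0.36, and 70.4% of all genes were higher. There 6 members passed, all higher: B2M, HLA-E and ERAP1 beside the 3 above. B2M was at 0.37 (adjusted p 1.03e-05), HLA-E at 0.39 (adjusted p 7.69e-06) and ERAP1 at 0.32 (adjusted p 0.000151). The comparison shares the GFP DMSO libraries with that of SMARCB1 against GFP in DMSO, so the opposite signs of TAP1 and TAP2 in the pair are not independent.

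**Figure D3:**
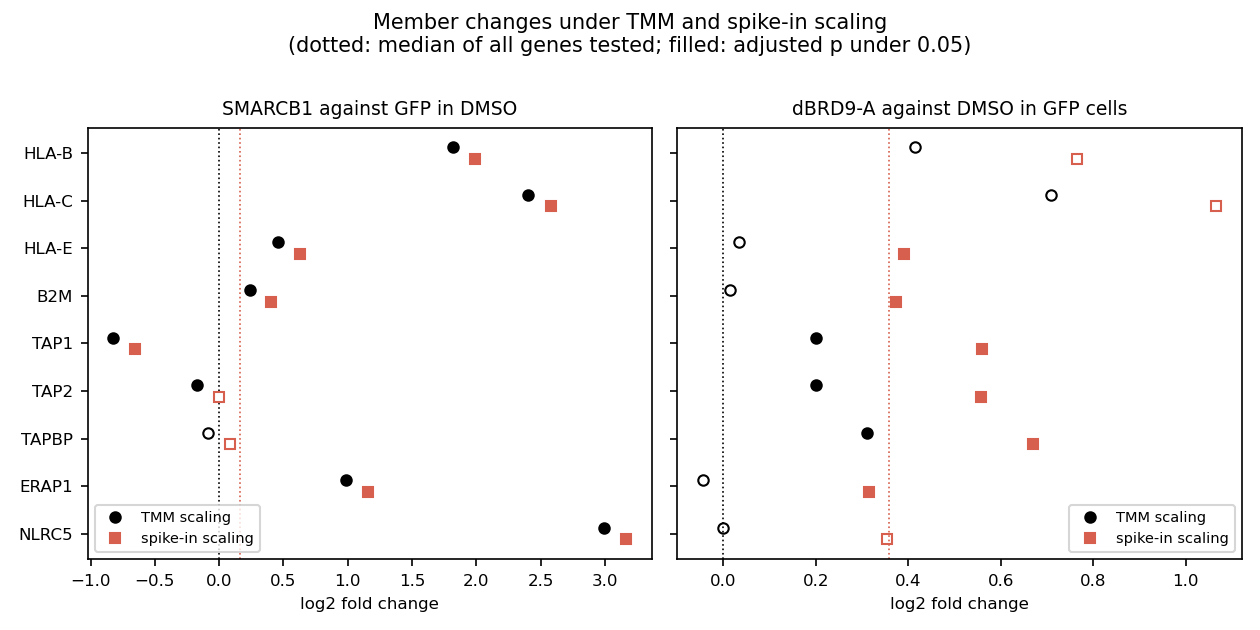
Log2 fold changes of the 9 genes with TMM scaling (circles) and with spike-in scaling (squares), for SMARCB1 against GFP in DMSO and for dBRD9-A against DMSO in GFP cells. Filled symbols passed the test, and dotted lines give the median of all genes tested, which spike-in scaling moved to 0.17 on the left and 0.36 on the right. Each gene moved with the median, so that B2M, HLA-E and ERAP1 lie near the dotted line on the right under both scalings.

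In SMARCB1 cells no member passed with dBRD9-A in edgeR's quasi-likelihood test, where 1.93% of all genes did, 0.679% higher and 1.25% lower, and none did in DESeq2's Wald test. One, TAP1, had an unadjusted p under 0.05: its 3 dBRD9-A libraries were all above its 3 DMSO libraries, as was so in either direction for 16.9% of all genes, and it was higher by 0.10 in log2 units (SE 0.04, adjusted p 0.297). TAP1 per 100 B2M counts likewise did not overlap between these groups (exact permutation p = 0.1, the smallest possible). TAPBP had 0.05 (95% interval -0.10 to 0.19, adjusted p 0.859) and TAP2 0.06 (-0.06 to 0.17, adjusted p 0.753). Spike-in scaling changed the sign of each: TAP1 had -0.039, TAP2 -0.085 and TAPBP -0.094, and none passed.

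Whether dBRD9-A acted differently in the 2 cell states was tested as an interaction. None of the 9 members passed, where 3.8% of all genes did, 2.15% higher and 1.65% lower, and 1, TAPBP, had an unadjusted p under 0.05. For TAPBP the change in SMARCB1 cells minus that in GFP cells was -0.27 (SE 0.09, 95% interval -0.47 to -0.07, adjusted p 0.157). Without the second GFP dBRD9-A replicate, the lowest of its group at 12.5 CPM, it was -0.34 (adjusted p 0.0400). For TAP1 the difference was -0.10 (SE 0.06, adjusted p 0.394) and for TAP2 -0.14 (SE 0.08, adjusted p 0.386). The rises of these genes in GFP cells were thus not shown to be absent or smaller in SMARCB1 cells. Under spike-in scaling 6 members passed, all lower, where 71.1% of all genes were lower and their median was -0.49.

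Other genes of the pathway were examined as 5 lists, 60 genes in all, of which 47 passed the filter. In DMSO 22 of the 47 were higher and 13 lower with SMARCB1, with a median of 0.03 beside -0.0047 for all genes, where 33.5% of all genes were higher and 31.6% lower. Under spike-in scaling these became 27 higher and 9 lower, beside 43.4% and 16.4% of all genes. With dBRD9-A 22 were higher and 16 lower, where 33% and 30.4% of all genes were, which the spike-ins turned into 10 higher and 26 lower, beside 13.5% and 57.4%. TAPBPL, ULBP2 and ULBP3 of these lists passed the filter on low counts only through SMARCB1 libraries.

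The list of peptide trimming enzymes and chaperones of the loading complex had 11 genes, of which 7 were higher and 1 lower with SMARCB1 in DMSO, against a background of 33.5% and 31.6% of all genes, with a median of 0.19. TAPBPL, one of the 11, had to differ by the way it passed the filter. ERAP2, the neighbour and partner of ERAP1, went from 12.5 ± 0.262 to 26.2 ± 0.258 CPM (SD, n = 3), higher by 1.07 on the log2 scale (SE 0.05, adjusted p 4.59e-12). LNPEP, an aminopeptidase of the same family, had 1.0 (SE 0.05, adjusted p 2.69e-12) and was named after its value had been seen. The member that fell was THOP1, a cytosolic peptidase that destroys peptides, by 0.16 on the log2 scale (SE 0.04, adjusted p 0.00279). The chaperones CALR at 0.09 and PDIA3 at 0.20 rose slightly, and CANX at 0.0077 (adjusted p 0.793) did not pass.

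The list of immunoproteasome subunits and proteasome activators had 6 genes, 5 of them tested, of which 3 fell with SMARCB1 in DMSO and none rose, with a median of -0.21. With 65% of all genes past the test, 3 of 5 is near the background. PSMB9, whose start lies near that of TAP1, went from 10.9 ± 0.904 to 5.39 ± 0.338 CPM (SD, n = 3), which is -1.01 on the log2 scale (SE 0.08, adjusted p 2.82e-09). It overlaps TAP1 on the opposite strand, so their reads cannot be told apart if the counting ignored strand. The others that fell were PSMB10 at -0.21 and PSME2 at -0.28, a subunit of the activator. PSMB8, the neighbour of TAP2, had 1 to 11 counts a library and was not tested. In SMARCB1 against GFP cells under dBRD9-A, 4 of the 5 were lower, where 30.4% of all genes were. PSMB9 led again, at -1.12 (SE 0.08, adjusted p 9.15e-10).

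Among 19 regulators of class I transcription, 11 were higher and 5 lower with SMARCB1 in DMSO, where 33.5% and 31.6% of all genes were, with a median of 0.29. IRF9, the DNA-binding part of the interferon-activated complex ISGF3, rose most, from 1.94 ± 0.439 to 6.36 ± 0.547 CPM (SD, n = 3), by 1.73 on the log2 scale (SE 0.13, adjusted p 2.57e-09). STAT2, another part of that complex, had 0.49, and the interferon regulatory factors IRF1 and IRF2 had 0.29 and 1.0, all past the test. In SMARCB1 against GFP cells under dBRD9-A, IRF1 did not pass, at 0.019 (SE 0.05, adjusted p 0.782). JAK1, a kinase of interferon receptors, fell most, by 0.75 (SE 0.03, adjusted p 6.3e-14). JAK2 of the same list stood at 17.2 ± 0.467 CPM in GFP DMSO and 17.6 ± 1.02 CPM in SMARCB1 DMSO (SD, n = 3). RFX5 and RFXANK, parts of the complex through which NLRC5 reaches class I promoters, both fell by 0.36, and RFXAP at -0.14 (adjusted p 0.290) did not pass.

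Of 12 other class I-like molecules 8 were tested, of which 3 were higher and 3 lower in DMSO, where 33.5% and 31.6% of all genes were. ULBP2 and ULBP3 had to differ by the way they passed the filter, so they support no count. ULBP3, a ligand of the natural killer receptor NKG2D, went from 8, 9 and 11 counts in GFP DMSO to 94, 98 and 108 in SMARCB1 DMSO, higher by 3.61 on the log2 scale (SE 0.29). PROCR, the endothelial protein C receptor, whose fold is class I-like, fell from 837 ± 23.9 to 159 ± 2.28 CPM (SD, n = 3), by 2.40 (SE 0.03, adjusted p 1.35e-20). Of 12 genes of the MHC class II pathway 4 were tested, 1 higher and 1 lower. CD74, the invariant chain, had 0.36 (SE 0.06, adjusted p 2.41e-05) and HLA-DMB, a peptide-exchange chain, -0.65 (SE 0.17, adjusted p 0.00257). Another 7 of the 12 were at or under 3 counts in every library.

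In GFP cells 11 of the 47 other genes passed with dBRD9-A, 6 higher and 5 lower, and in SMARCB1 cells 1 did, where 15.9% and 1.93% of all genes passed. In GFP cells CANX, a chaperone of new heavy chains, fell by 0.19 (SE 0.02, adjusted p 1.16e-05) and IFNGR1, a chain of the interferon gamma receptor, rose by 0.18 (SE 0.05, adjusted p 0.0188). BLMH of the trimming list had 0.15 (adjusted p 0.00116), JAK1 -0.09 (adjusted p 0.0251) and the class I-like MR1 -0.27 (adjusted p 0.0315). None of the 5 tested proteasome genes passed in either cell state, PSMB9 included. In SMARCB1 cells NFYC, a subunit of the CCAAT-binding factor, rose by 0.21 (SE 0.04, adjusted p 0.00966). The interaction was passed by PROCR, at 0.26 (SE 0.04, adjusted p 0.000594).

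**Figure D4:**
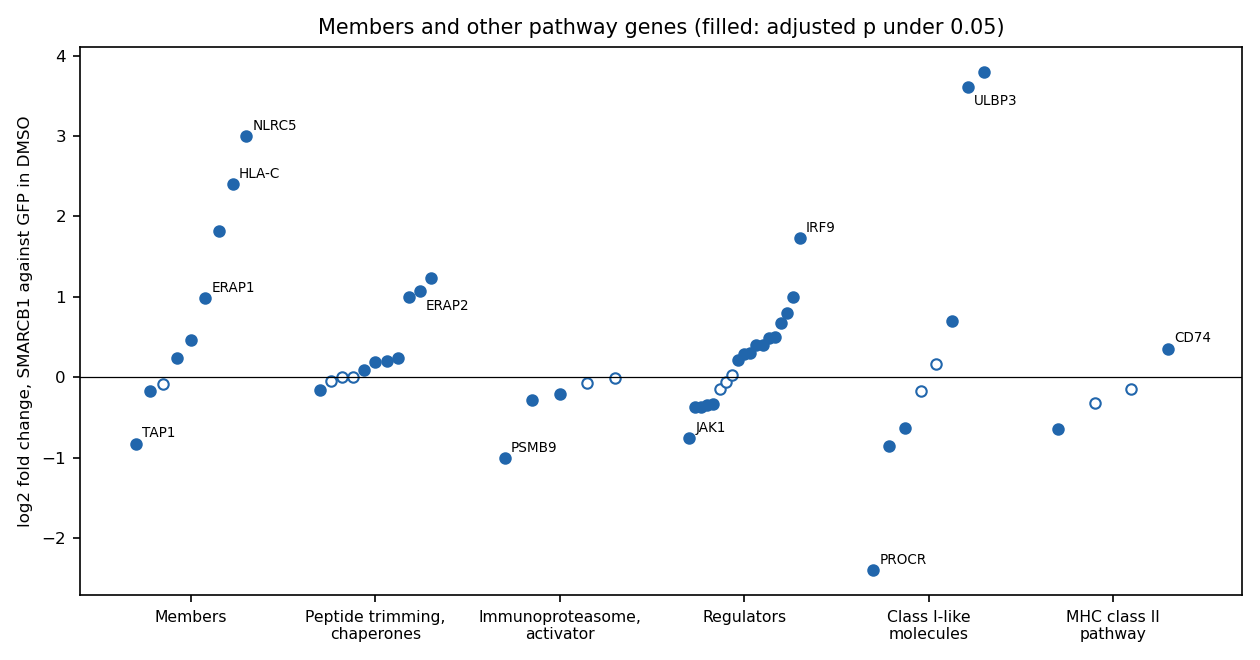
Log2 fold change of SMARCB1 against GFP in DMSO for the 9 members and for the tested genes of 5 lists of other pathway genes, each point a gene, ordered by value within its list. Filled points passed the test. The 3 filled points of the immunoproteasome list all lie under 0, and the trimming list has 7 filled points above 0 and 1 under it.

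The genes whose profile over the 12 libraries was most like each member's were sought by the root mean square difference of centred log2 CPM. For ERAP1 they were PLS3 (0.0364) and UGP2 (0.0372), for B2M CD164 (0.0229) and CBX3 (0.0247), and for HLA-E PDCD10 (0.0322) and GNAS (0.0334). For TAP1 they were PRMT3 (0.0523) and VARS1 (0.0610), for TAP2 NR1H2 (0.0530) and LAMTOR4 (0.0545), and for TAPBP DAB2IP (0.0538) and PLPPR2 (0.0641). NLRC5 was nearest to GALNT10 (0.147) and ELOVL2 (0.153). None of these is one of the other members. For HLA-B and HLA-C the nearest differences were 0.352 and 0.358, larger than for the rest.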

How the data were processed

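Per the labels' protocols, total RNA was made into libraries with a strand-keeping mRNA kit. The authors deposited expected counts per gene in 3 tables, each holding a pair of groups, and libraries found in more than 1 table were identical there. The submitters' processing notes name STAR, RSEM 1.3.1, DESeq2 and the build GRCh37, also called hg19, with no role or order. The annotation and the use of strand are not given in the sources used here. RSEM divides reads that fit several genes, so the expected counts of near-identical HLA genes depend on that division. The labels do not say how the 40 spike-in RNAs were added, and their rows, 0.963% to 1.30% of each library's total, stayed out of library sizes and tests.

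Expected counts were rounded to whole numbers. Symbols matched 51996 of 57820 identifiers. In R 4.3.3, edgeR 4.0.16 kept 15750 genes (filterByExpr, minimum count 10), scaled libraries by TMM (factors 0.976 to 1.02) and fitted a quasi-likelihood model with 1 mean per group to all 12 libraries. An adjusted p under 0.05 counted as passed, and SEs and 95% intervals come from the quasi-dispersion. DESeq2 1.42.0 was used for an alternative. Spike-in scaling, no filter, the groups of a comparison alone, a replicate block, a limit on the fold change and leaving out each library were the other alternatives. The scripts were tested on simulated data.

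All 9 members are named. Of each other list, the largest rise and fall per comparison were sought. They were taken among genes past the test with a mean of at least 50 counts and replicates that did not overlap. Not every gene so found is given for every comparison. The other genes named from the lists were named after their values were seen. The profile search took genes with a mean of at least 50 counts. The members and lists were chosen with earlier results of these data known. GENCODE 29 gave only exon lengths, for 15257 of the tested genes, and overlaps. No pairing of samples by replicate number was seen, and none was used in the main fit.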

Additional observations from a re-analysis of the deposited data

How the results depend on the processing

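Counts of members that passed (8 of 9 for SMARCB1 in DMSO, 9 with dBRD9-A, 3 and 0 for dBRD9-A in GFP and SMARCB1 cells, 0 for the interaction) were 7 to 8, 8 to 9, 2 to 3, 0 and 0 to 1 when each library was left out in turn. The 1 was TAPBP without the second GFP dBRD9-A replicate. With changes of 1 or more on the log2 scale required, the counts were 3, 3 and 0 in the first 3 comparisons. Without HLA-B and HLA-C, which support no count for SMARCB1 against GFP, these were 1, 1 and 0. With no such limit, 6 of the other 7 members passed for SMARCB1 in DMSO and 7 with dBRD9-A. DESeq2 size factors and no filter gave the same member counts. The other genes that passed in SMARCB1 cells with dBRD9-A were 1 with edgeR and 3 with DESeq2's Wald test, and for the interaction 1, or 2 with DESeq2 size factors. Spike-in scaling had the widest effect, with the medians of all genes at 0.17, -0.32, 0.36, -0.14 and -0.49 in the 5 comparisons. It gave 6 members higher for dBRD9-A in GFP cells and 6 lower for the interaction, and 39, 3 and 41 other genes for dBRD9-A in GFP cells, in SMARCB1 cells and the interaction. Of all genes it gave 70.4% higher and 1.44% lower, 0.248% and 5.30%, and 0.419% and 71.1% in these 3. It reversed B2M for SMARCB1 with dBRD9-A (-0.12, adjusted p 0.0955) and ERAP1 for dBRD9-A in GFP cells (0.32, adjusted p 0.000151) and for the interaction (-0.48, adjusted p 4.97e-05). The summed HLA counts had 0.084 (adjusted p 0.271) for SMARCB1 with dBRD9-A, 0.39 (adjusted p 7.02e-06) for dBRD9-A in GFP cells and -0.56 (adjusted p 1.07e-05) for the interaction. Same-numbered libraries did not deviate together (correlations -0.0559 to 0.0611), so no pairing by number was seen. The titles of the libraries run in sets by replicate number, so a pairing is not excluded. With a replicate block 8, 8, 3, 0 and 0 members passed, the lost call being HLA-B for SMARCB1 with dBRD9-A (1.28, adjusted p 0.0523), and 10113, 9812, 2233, 254 and 529 of all genes passed, against 10245, 9975, 2504, 304 and 598 without it. HLA-B also lost that call in DESeq2's Wald test (1.28, adjusted p 0.0872) and without 5 of the 12 libraries in turn. Values that passed neither before nor after a change of setting were counted as having no direction. Adding the reads of AL669918.1 to TAP2 was chosen after seeing the data. Fits of a comparison's groups alone dropped HLA-B for both comparisons of SMARCB1 with GFP and both HLA-B and HLA-C for dBRD9-A in GFP cells, and DESeq2 gave no adjusted p for 2 members in the comparisons of dBRD9-A and the interaction. Depth limits HLA-B, HLA-C and NLRC5 most, since their GFP libraries had 2 to 24 counts each.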
